A study of Oryza sativa with 6 samples.

Results

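The miR159 family was followed in small RNA of germinating rice seeds at 25 °C and 35 °C. Its members are the names of the deposited table whose family number, directly after "mir", is that of miR159, and they make up 22 of the 641 names. All 6 libraries came from germinating seeds of the cultivar Kasalath, an aus-type rice, at a labelled age of 5 days after germination. The 3 libraries titled normal were from seeds at 25 °C and the 3 titled hot from seeds at 35 °C, and the labels give no other treatment or genotype. Seeds were kept in dishes of 5, with 4 dishes at each temperature, and are recorded as kept damp until day 8. The sources used here do not say which dishes went into which library. Libraries of one temperature are biological triplicates, per the series' design text. The table holds miRNA names only, so the labelled tissue could not be checked against marker genes.

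In plants, miR159 is one of the oldest and most abundant microRNA families. It directs cleavage and repression of transcripts for GAMYB and GAMYB-like transcription factors of the R2R3 MYB class. In the cereal aleurone, the layer around the starchy endosperm, GAMYB acts below gibberellin to switch on alpha-amylase genes during germination, and in rice anthers it is needed for pollen development. The active strand of miR159 is cut from the 3p arm of its hairpin, while the 5p arm gives the passenger strand. The closest relative by sequence is miR319, whose main targets are TCP transcription factor transcripts. No miRNA sequences or hairpin positions were used here, so members are called by the names in the table.

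The deposited counts summed to between 136294 and 377473 per library. The library totals behind the authors' normalised values ran from 157488 to 275549. The column sums exceed the totals in all 3 hot libraries, and reads were entered under several names. Values are given on 2 scales. CPM is the count per 1000000 counts of the column sum scaled by TMM, a method that sets most names to no change. The other scale, called the normalised count, is the count per 1000000 of the deposited library total. The median log2 fold change of all tested names was 0.006 with TMM and 0.994 with the totals, so each scale has its own zero.

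At 35 °C the composition of the family differed from that at 25 °C. The most abundant group of miR159 reads, counted as mir159b-3p.1, made up 72.3% of the family at 25 °C and 52.9% at 35 °C, once repeated entries were set aside. Reads counted as mir159-3p went from 5.33% to 12.1%. Each of these shares had an exact permutation p of 0.1, the smallest that 3 against 3 libraries can give (adjusted p = 0.229 over 8 rows). The rows behind the shares were chosen after the counts were seen. Shares are parts of a whole, so a fall of the largest raises others and the changes are not separate results. All miR159 names called lower at 35 °C with TMM scaling were names whose counts hold those of mir159b-3p.1. How far the level of each group moved depended on the scale, given for each row in turn.

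The 22 names are far fewer measurements than they look. The row mir159b-3p.1 is repeated, count for count, under mir159k-3p, mir159j-3p and mir159f-3p, and mir159c-5p is repeated under mir159d-5p, which leaves 18 count vectors. Of these, 8 are whole-number sums of smaller miR159 rows to within 2 counts in every library, and 4 of the 8 match exactly in all 6 libraries. The name mir159a-1 equals mir159b-3p.1 plus mir159e-3p. The name mir159a-3p equals mir159b-3p.1 plus 2 times mir159e-3p. In the same way mir159d equals mir159b-3p.1 plus mir159d-3p plus mir159e. The name mir159 equals mir159b-3p.1 plus 7 times mir159e-3p plus mir159d-3p. For each of these names 100896 sums of up to 3 rows were tried, with multiples up to 12, and 1 was equal in all libraries.

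The name mir159a-3p shows the arithmetic. In normal library 1 it had 403 counts, where mir159b-3p.1 had 301 and mir159e-3p had 51. In hot library 1 it had 181 counts, with 95 and 43 in the other rows, and in hot library 3 it had 328 counts, with 216 and 56. Adding mir159e-3p 2 times to mir159b-3p.1 gives the mir159a-3p count in each of these libraries and in the other 3.

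The other 4 sums were near rather than exact. The name mir159b-3p differed from the sum of mir159b-3p.1 and mir159e-3p by 1 count in 2 of 6 libraries. The 2 most abundant names, mir159a and mir159b, held mir159b-3p.1 5 and 4 times and mir159e-3p 9 and 4 times. With low multiples of mir159d-3p in both sums and mir159e in that of mir159b, gaps of up to 2 counts were left. The name mir159c was within 1 count of 2 times mir159e-3p plus mir159c-3p, mir159d-3p and mir159e, so it holds no mir159b-3p.1 counts. Near copies were mir159f of mir159-3p, with gaps of up to 2 counts, and mir159-5p of mir159c-5p, with gaps of up to 1. The sums were chosen from these same data. Those of mir159b and mir159c hold more rows than the search of up to 3 rows covered. Whether other sums fit these 2 names as well was not tested. How the authors' matching entered reads under several names was not tested.

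**Figure D1:**
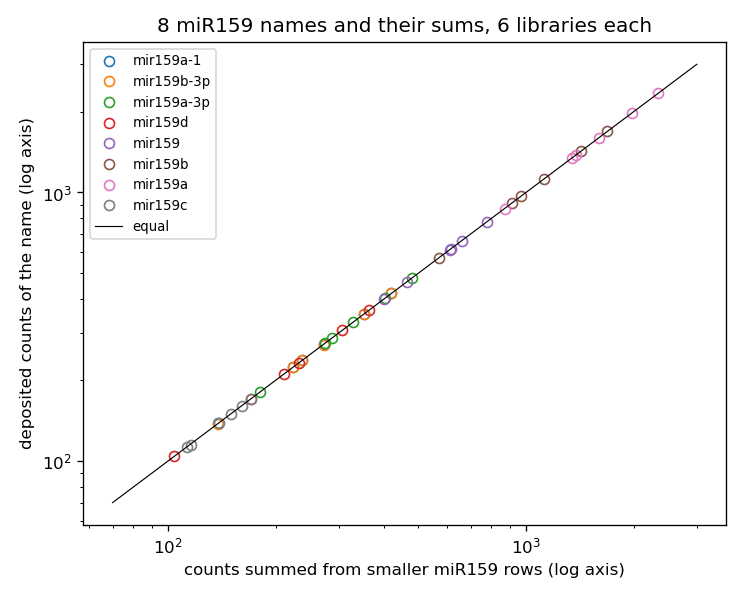
Deposited counts of 8 miR159 names (vertical, log axis) against counts summed from smaller miR159 rows (horizontal, log axis), 1 circle per library and name, with a line where both are equal. Every circle lies within 2 counts of the line.

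The 8 rows that were not taken as sums or copies of others are called building-block rows. They hold 2057 counts over the 6 libraries, while all 22 names together hold 33447, a ratio of 16.26. The family's depth is thus that of the building-block rows, 405, 299 and 478 counts at 25 °C and 192, 312 and 371 at 35 °C. Of the 2057, mir159b-3p.1 has 1333, mir159e-3p 310, mir159c-3p 174 and mir159-3p 169. The rows mir159d-3p (30), mir159e (25), mir159c-5p (13) and mir159a-2 (3) are too low for a comparison of single libraries. Counts of mir159d-3p were 4, 6 and 1 at 25 °C and 5, 6 and 8 at 35 °C. Those of mir159e were close to them, at 2, 5 and 1 and then 4, 5 and 8. Whether these rows share reads was not tested.

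Among the building-block rows, mir159b-3p.1 was the one called lower at 35 °C with TMM. It had 2101, 1396 and 1556 CPM at 25 °C and 603, 508 and 587 CPM at 35 °C. All hot libraries lie below all normal libraries, as was so for 28.5% of all names tested with TMM. Its log2 fold change was -1.57 (SE 0.19, adjusted p = 0.00276, edgeR's quasi-likelihood test with Benjamini-Hochberg adjustment over 253 names). Its normalised counts were 1140, 799.2 and 1314 at 25 °C and 603.2, 661.3 and 885.8 at 35 °C. There normal library 2 lies below hot library 3, so the groups overlap, and the log2 fold change was -0.60 (SE 0.30, adjusted p = 0.156 in edgeR), not called.

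The row mir159e-3p had 356.0, 258.2 and 253.6 CPM at 25 °C and 273.0, 204.5 and 152.2 CPM at 35 °C. The groups overlap, and the log2 fold change of -0.47 (SE 0.31) was not called (adjusted p = 0.261 in edgeR). Its normalised counts were 193.1, 147.8 and 214.1 at 25 °C and 273.0, 266.2 and 229.6 at 35 °C, with all hot libraries above all normal ones. On this scale 42.5% of all tested names lay higher without overlap. The log2 fold change with the totals was 0.47 (SE 0.37, adjusted p = 0.335 in edgeR), so the sign depends on the scale and neither value was called.

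The row mir159-3p had normalised counts of 60.6, 83.9 and 87.1 at 25 °C and 127.0, 166.4 and 196.8 at 35 °C. The lowest hot library lies above the highest normal library, as was so for 42.5% of all names tested with the totals. Its log2 fold change was 1.08 (SE 0.44) with the totals, with an unadjusted p of 0.0367 and an adjusted p of 0.0957 in edgeR's test, and 0.10 (SE 0.30, adjusted p = 0.865) with TMM. With the 3 libraries of each group added up, 61 counts stood against 108, a ratio of 2.18 per library total with an exact 95% interval of 1.58 to 3.03 that covers counting error only. The median log2 fold change of all tested names with the totals was 0.994, close to the 1.08 of this row. A rise of this size is thus not particular to mir159-3p on that scale.

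The row mir159c-3p had normalised counts of 117.4, 111.9 and 108.9 at 25 °C and 133.3, 128.9 and 135.3 at 35 °C. The hot libraries lie above the normal ones, as for 42.5% of all names tested with the totals, and the difference is small. In edgeR its log2 fold change was 0.23 (SE 0.40, adjusted p = 0.638) with the totals and -0.75 (SE 0.34, adjusted p = 0.116) with TMM, neither called.

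**Figure D2:**
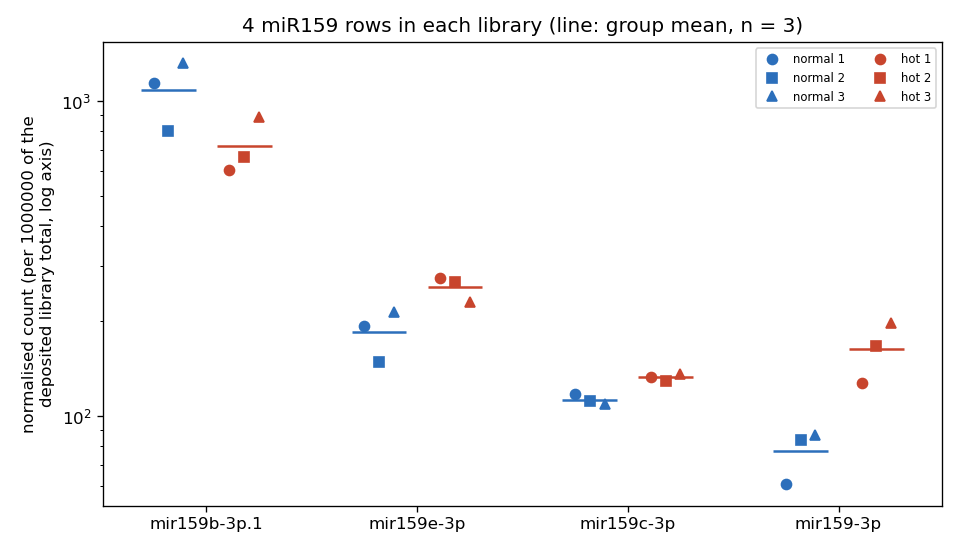
Normalised counts, per 1000000 of the deposited library total (vertical, log axis) for 4 miR159 building-block rows, 1 point per library and a line at each group mean (n = 3). The hot libraries lie above the normal libraries for mir159e-3p, mir159c-3p and mir159-3p, as for 42.5% of all names tested on this scale. The groups overlap for mir159b-3p.1, whose hot mean is the lower one.

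Of the 22 names 16 passed the filter on low counts, and 11 of the 16 were called lower with TMM, against 15.8% of all 253 tested names called lower. None was called higher in edgeR, where 7.11% of all names were, and none had an unadjusted p under 0.05 in that direction. The DESeq2 test, which called 25.3% of all names higher, and limma-voom, which called 7.11%, also called none of the 16 higher. DESeq2 scaled the libraries by its own size factors and not by TMM. The CPM of the groups did not overlap for the same 11 names, against 28.5% of all tested names that lay lower without overlap, and 0 lay higher without overlap, against 30.4%. The median log2 fold change of the 16 was -1.27. The 11 called names rest on 8 count vectors, so they are not 11 measurements. With 1 row per distinct count pattern of the whole table, 7 of 13 tested miR159 rows were called lower, against 16.3% of 166 rows, and 0 higher, against 18.7%. With the miR159 sums and copies left out, 1 of the 4 tested rows was called lower, mir159b-3p.1, against 17.0% of 241 names, and 0 higher, against 7.47%. The names not tested were mir159-5p, mir159a-2, mir159c-5p, mir159d-3p, mir159d-5p and mir159e.

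The 11 called names are the 11 names whose counts hold those of mir159b-3p.1. The 5 tested names that do not hold them (mir159-3p, mir159f, mir159c, mir159c-3p and mir159e-3p) had log2 fold changes from -0.75 to 0.14 with TMM, none called. Among the 11 the fitted fall grew with the share of mir159b-3p.1 in the name. That row is 37.73% of the counts of mir159, whose log2 fold change was -0.86 (SE 0.20, adjusted p = 0.0297 in edgeR). That call was lost without normal library 1 (adjusted p = 0.0628), normal library 2 (0.0584), normal library 3 (0.0506) or hot library 3 (0.0676). It makes up 68.25% of mir159a-3p (-1.20), 70.1% of mir159a (-1.22), 79.78% of mir159b (-1.32) and 81.13% of mir159a-1 (-1.35). It makes up 96.04% of mir159d, which had -1.50. Since these names share reads, the order is a description and not independent evidence.

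With the library totals none of the 16 was called in edgeR, against 0.376% of 266 names called lower and 32.3% called higher. At an unadjusted p under 0.05, 0 were lower and 2 higher, the near copies mir159-3p and mir159f. The 11 names holding mir159b-3p.1 had values from -0.60 to 0.09, and mir159 was the one above 0. The 5 others had 0.23 to 1.12. All 5 of these, and none of the 11, lay higher at 35 °C without overlap, against 42.5% of all names tested with the totals, and 0 of the 16 lay lower without overlap, against 1.88%. Of the 5 others, mir159f is a near copy of mir159-3p and mir159c a sum that holds mir159e-3p and mir159c-3p, so they are not 5 measurements either.

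**Figure D3:**
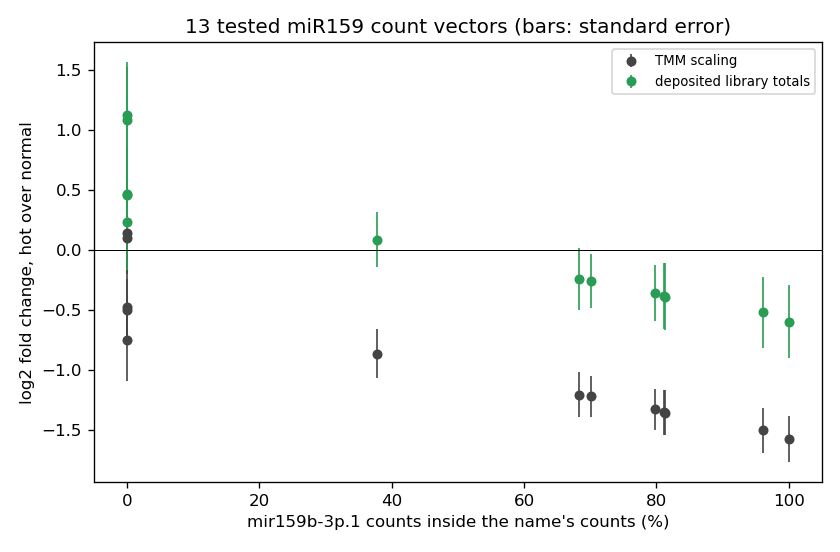
Log2 fold change of hot over normal libraries (vertical) for the 13 tested miR159 count vectors against the percentage of mir159b-3p.1 counts in each (horizontal), with standard errors, for TMM scaling (grey) and the deposited library totals (green). On both scales the names made up of mir159b-3p.1 lie lowest, at -1.57 and -0.60.

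A comparison inside each library needs no scale between libraries. The row mir159b-3p.1 made up 74.3%, 66.9% and 75.7% of building-block counts at 25 °C and 49.5%, 51.0% and 58.2% at 35 °C. The 95% Wilson intervals were 69.9 to 78.3%, 61.4 to 72.0% and 71.7 to 79.4% in the normal libraries. In the hot libraries they were 42.5 to 56.5%, 45.4 to 56.5% and 53.1 to 63.1%, so that of hot library 3 overlaps that of normal library 2. The mean went from 72.3 ± 4.75% to 52.9 ± 4.68% (SD, n = 3 each), and all hot libraries lay below all normal ones. The exact two-sided permutation p was 0.1, the smallest that 3 against 3 libraries can give, so this test cannot pass 0.05 (adjusted p = 0.229 over 8 rows).

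The share of mir159-3p went the other way, from 5.33 ± 1.56% to 12.1 ± 1.42% (SD, n = 3 each, exact permutation p = 0.1). That of mir159e-3p was 12.6%, 12.4% and 12.3% at 25 °C and 22.4%, 20.5% and 15.1% at 35 °C. Neither share overlapped between the groups, nor did that of mir159b-3p.1. Separation of the groups was common, since in CPM 28.5% of all tested names lay lower without overlap and 30.4% higher. The share of mir159c-3p, 7.77 ± 1.55% against 9.92 ± 1.02%, did overlap (exact permutation p = 0.2, n = 3 each).

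**Figure D4:**
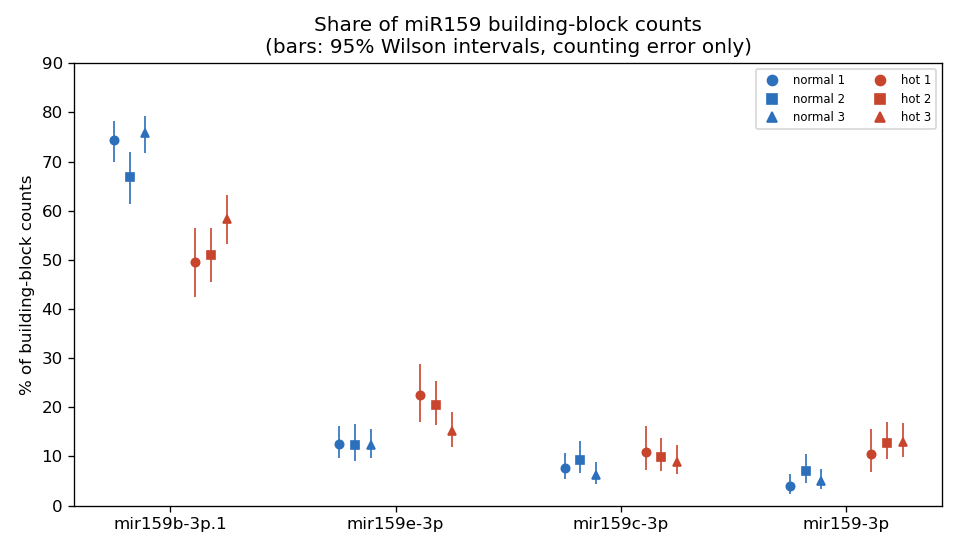
Percentage of miR159 building-block counts in 4 rows (vertical), 1 point per library with its 95% Wilson interval, which covers counting error only. The share of mir159b-3p.1 is 66.9 to 75.7% at 25 °C and 49.5 to 58.2% at 35 °C.

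Ratios of rows show the same shift without the other rows in the denominator. There were 5.90, 5.41 and 6.14 counts of mir159b-3p.1 for each count of mir159e-3p in the normal libraries, and 2.21, 2.48 and 3.86 at 35 °C. The normal libraries are close together, and hot library 3 is nearest to them. In log2 the ratio went from 2.54 ± 0.09 to 1.47 ± 0.42 (SD, n = 3 each), a change to 0.476 of its normal value (exact permutation p = 0.1, adjusted p = 0.167 over 10 ratios). Against mir159-3p the ratio was 18.8, 9.52 and 15.1 at 25 °C and 4.75, 3.98 and 4.50 at 35 °C, a change to 0.316 of its normal value. Against mir159c-3p it was 9.71, 7.14 and 12.1 and then 4.52, 5.13 and 6.55, a change to 0.566. All 3 of these ratios were lower in every hot library than in any normal library, each with an exact permutation p of 0.1. How often ratios of other pairs of names separate the groups was not tested. In CPM 28.5% of all tested names lay lower without overlap. The 3 ratios share their numerator, so they are not separate tests.

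Among the rows other than mir159b-3p.1, the ratio of mir159e-3p to mir159c-3p had 1.65, 1.32 and 1.97 at 25 °C and 2.05, 2.07 and 1.70 at 35 °C, which overlap (exact permutation p = 0.2). That of mir159-3p to mir159e-3p also overlapped (exact permutation p = 0.2), while that of mir159-3p to mir159c-3p, 0.516, 0.750 and 0.800 against 0.952, 1.29 and 1.46, did not. It was 1.79-fold higher at 35 °C (exact permutation p = 0.1).

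The related family miR319 gave a comparison from outside the family, though not a fixed reference. The row mir319a, identical to 3 other miR319 rows, had 46, 46 and 60 counts at 25 °C and 26, 50 and 56 at 35 °C. With TMM it was itself called lower, with a log2 fold change of -0.91 (adjusted p = 0.0334 in edgeR), where mir159-3p had 0.10. Ratios to mir319a can therefore move with either row. For each mir319a count there were 6.54, 4.35 and 6.03 counts of mir159b-3p.1 at 25 °C and 3.65, 3.18 and 3.86 at 35 °C, without overlap. That is a change to 0.639 of the normal value (exact permutation p = 0.1). Counts of mir159-3p per mir319a count went without overlap from 0.348, 0.457 and 0.400 to 0.769, 0.800 and 0.857, a 2.03-fold difference with the same p. Ratios of mir159e-3p and mir159c-3p to mir319a overlapped between the groups (exact permutation p = 0.2 and p = 0.5). No background was computed for such ratios, and in CPM 28.5% of all tested names lay lower without overlap and 30.4% higher.

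**Figure D5:**
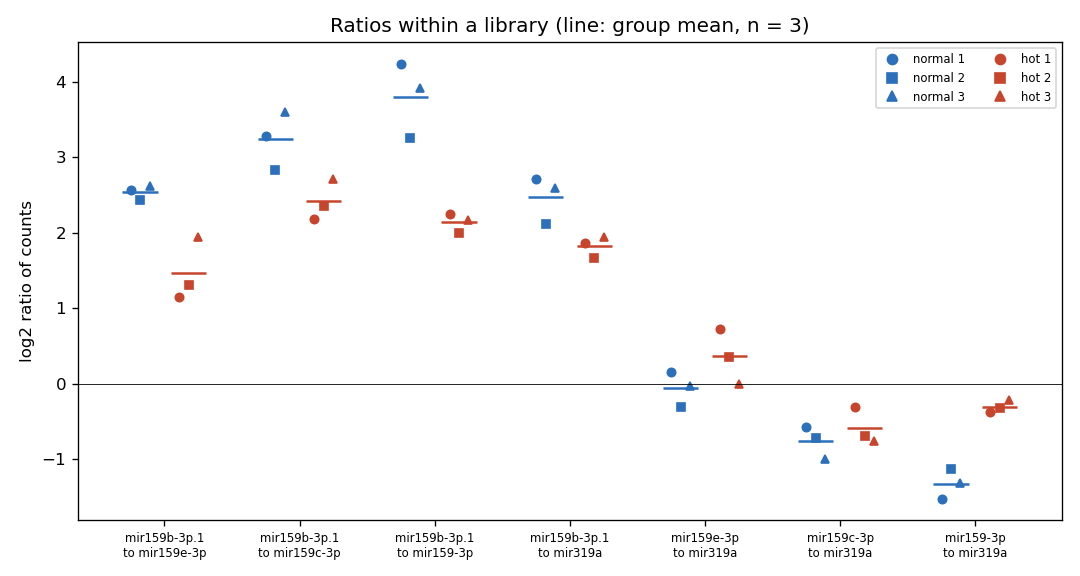
Log2 ratios of counts within a library (vertical) for 7 pairs of rows, 1 point per library and a line at each group mean (n = 3). The first 4 ratios, all with mir159b-3p.1 on top, are lower in every hot library, and that of mir159-3p to mir319a is higher in every hot library.

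Over the 18 count vectors of the family as deposited, sums included, the share of family counts was lower at 35 °C without overlap for 6 (33.3%) and higher without overlap for 5 (27.8%). Each of these 11 had an exact permutation p of 0.1 (adjusted p = 0.164 over 18). The name mir159 was among the higher ones, at 11.0 ± 0.14% of family counts at 25 °C and 13.7 ± 1.26% at 35 °C (SD, n = 3 each), although its CPM was called lower. It is the name in which mir159e-3p counts 7 times.

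Passenger-strand names were rare. The identical rows mir159c-5p and mir159d-5p had 0, 1 and 1 counts at 25 °C and 4, 6 and 1 at 35 °C, and mir159-5p had 0, 1 and 1 and then 3, 5 and 0. In counts, hot libraries 1 and 2 are higher than the other libraries, and hot library 3 is no higher than normal libraries 2 and 3. Added up, 2 counts of mir159c-5p stood against 11, a ratio of 6.77 per library total with an exact 95% interval of 1.48 to 62.9 for counting error only. Names with a 3p suffix held 99.9 ± 0.12% of the counts under a 3p or 5p name at 25 °C and 99.1 ± 0.72% at 35 °C (SD, n = 3 each, identical rows once and sums included, exact permutation p = 0.3), and the groups overlap. Since the sums repeat 3p rows, these 3p shares are higher than those of the building-block rows. Of all building-block counts, mir159c-5p made up 0, 0.33 and 0.21% at 25 °C and 2.08, 1.92 and 0.27% at 35 °C. Its groups overlap (exact permutation p = 0.2). Among the building-block rows with an arm in their name, normal library 1 had 0 5p counts of 403, which allows a share of up to 0.744%.

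Summed over the family with identical rows added once, miR159 had 40729, 28198 and 32714 CPM at 25 °C and 20061, 18278 and 18712 at 35 °C, on a TMM scale fitted to families. The groups do not overlap. The log2 fold change was -0.83 (SE 0.17, adjusted p = 0.0111 in edgeR over 32 families, of which 12.5% were called lower and 21.9% higher). With the building-block rows alone it was -0.75 (SE 0.27) and no longer called (adjusted p = 0.0863), and with the library totals -0.23 (adjusted p = 0.445). The call was also lost without hot library 2 (adjusted p = 0.115) and without hot library 3 (adjusted p = 0.0514). In log2 terms the sum of miR159 over that of miR319 was 3.66 ± 0.30 at 25 °C and 3.32 ± 0.17 at 35 °C (SD, n = 3 each), which overlap (exact permutation p = 0.2).

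Among 31 other tested families, those whose CPM profile over the 6 libraries lay nearest to miR159 were miR319, miR820, miR1425 and miR5794. The measure is the root mean square difference of log2 CPM centred within each family, and it was 0.26, 0.37, 0.37 and 0.44. In the family fit they had log2 fold changes of -0.47, -0.14, -0.85 and -1.76, and only that of miR5794 was called (adjusted p = 0.00772 in edgeR). Of the miR319 names all 7 tested were called lower with TMM, against 15.8% of all names, mir319b-3p by -0.77 and mir319b by -0.91. They hold 4 identical rows, mir319a-3p within 1 count of these and mir319b at 2 times their counts, so they are not 7 measurements. The miR319 sum was not called with TMM by edgeR (adjusted p = 0.227) or limma-voom (0.323). The DESeq2 test, which called 7 of 32 families lower, called this sum lower (-0.62, adjusted p = 0.00214). So did edgeR with column sums alone (-0.97, adjusted p = 0.0298). None of the 7 names was called with the library totals, where their values were 0.06 to 0.21.

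A list of families linked to germination or abscisic acid in other plant studies held miR156, whose targets are SPL transcription factor transcripts, and miR160, which targets transcripts of repressor-type auxin response factors. With TMM in edgeR 0 of 40 tested miR156 names were called higher, against 7.11% of all names, and 1 lower, against 15.8%, while 23 were higher at an unadjusted p under 0.05. The DESeq2 test, with its own size factors, called 35 of the 40 higher, against 25.3% of all names. With TMM limma-voom called 0, against 7.11%. With the library totals edgeR called 35 of the 40 higher, against 32.3%. The miR156 family sum was called higher with TMM in edgeR (log2 fold change 0.48, adjusted p = 0.00772), where 21.9% of 32 families were. With TMM limma-voom also called this sum higher (adjusted p = 0.00828). It was not called by the DESeq2 test (0.33, adjusted p = 0.0573) or with column sums alone (-0.02, adjusted p = 0.705 in edgeR). Of 14 tested miR160 names none was called either way by edgeR or limma-voom with TMM, or by DESeq2 with its own size factors. None had an unadjusted p under 0.05 in these tests. With the totals 0 of 15 were called in edgeR, and 11 were higher at an unadjusted p under 0.05. The miR160 family sum was not called in edgeR with TMM (0.86, adjusted p = 0.320) or with the totals (1.52, adjusted p = 0.0823). The median log2 fold changes of miR156 and miR160 names were 0.21 and 0.54 with TMM, against -1.27 for miR159 and 0.006 for all names. With the totals they were 1.19 and 1.57, against -0.31 for miR159 and 0.994 for all names.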

How the data were processed

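Small RNA of 6 libraries, 3 at 25 °C and 3 at 35 °C, was isolated with a mirVana kit and built into NEBNext libraries, per the labels' protocols. The raw columns hold read counts per miRNA name as deposited by the authors. The normalised columns hold a signal that the authors made by dividing each count by 1 total per library, as the deposited values show. That total was recovered from rows with a count above 20. The aligner, the miRNA database and the genome build are not stated in the labels or headers used here, so they are not given.

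Counts of all names were fitted in R 4.3.3 with edgeR 4.0.16, using its quasi-likelihood test after filterByExpr and TMM scaling, with group as the only term and an adjusted p under 0.05 as threshold. Standard errors are the log2 fold change over the square root of F. limma 3.58.1, with TMM, and DESeq2 1.42.0, with its own size factors, gave alternatives. Shares and ratios were compared over libraries by exact two-sided permutation tests. Intervals cover counting error only, since they leave out differences between libraries of a group. Reads carry no stated molecular identifiers. The scripts were tested on simulated data. Every miR159 name is described. Other families were named by relation to miR159, by the germination list or by likeness of profile.

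Members, lists and tests were chosen with earlier results of these data known, and the building-block rows after the counts were seen. Libraries of a group differed by more than counting error in every pair, the chi-square per degree of freedom being 5.13 to 23.2. The labels name no batch.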

Additional observations from a re-analysis of the deposited data

How the results depend on the processing

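The row mir159b-3p.1 was called lower in 15 of 16 other settings, all but the library totals. The number of miR159 names called lower was 11 with TMM and 0 with the library totals, 7 with 1 row per distinct count pattern over the table (13 tested) and 1 with the miR159 building-block rows only (4 tested), the last 2 with fewer names in the test. Without the miR156 names it was 8, with the calls of mir159a (adjusted p = 0.0574 in edgeR), mir159a-3p (0.0602) and mir159 (0.244) lost. Leaving out 1 library gave 10 to 12. The family sum kept its direction in all 17 other settings and was called in 11. It was not called with the library totals (-0.23), without a filter (-0.80), without the miR156 names (-0.77), with building-block rows only (-0.75) and without hot library 2 or 3; leaving out 1 library gave -0.95 to -0.68. Why the calls were lost in these settings was not tested. The call of mir159 was lost in 8 settings, among them without normal library 1, 2 or 3 or hot library 3.

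Values changed sign with the library totals for mir159 (0.086), mir159c (0.46), mir159c-3p (0.23) and mir159e-3p (0.47), and with column sums alone for mir159-3p (-0.0495) and mir159f (-0.0069). That of mir159-3p was -0.0089 without normal library 1, -0.0073 without normal library 3 and 0.26 at most when another library was left out. Shares over all names turned those of mir159a (0.22 percentage points) and mir159a-3p (0.12). The cause was not tested. Every other share and ratio kept its direction in each setting run.

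Deviations of same-numbered libraries correlated at 0.341, -0.103 and -0.025 (171 patterns), and those of differently numbered libraries at -0.408 to 0.362. These values cannot settle whether replicate numbers pair the libraries. With a replicate block 12 miR159 names were called lower, mir159c added, and the family sum was -0.82. Depth limits the rows under 60 counts, for which differences between single libraries were not tested.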
